A study of Mus musculus with 12 samples.

Results

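The cytosolic ribosomal protein genes were described in CD8+ T cells sorted from AT3ova tumors. They were taken by name as the protein-coding mouse genes whose symbol begins with Rpl or Rps and a digit, together with Rplp0, Rplp1, Rplp2, Rpsa and Fau, leaving out pseudogenes, the Rps6k kinases and paralogs with an l at the end of the symbol. The rule gave 80 of the 52636 genes in the count table, and all 80 reached 10 counts in at least 3 libraries. Of these, 46 encode proteins of the large subunit and 33 proteins of the small subunit. The last, Rps19bp1, matches by its symbol but encodes a protein that binds ribosomal protein S19, so 79 of the 80 are ribosomal proteins. The paralogs Rpl3l, Rpl22l1 and Rps27l were described apart.

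The cells came from A2AR eGFP reporter mice (Tg(Adora2a-EGFP)EP141Gsat) on a C57BL/6 background, in which EGFP on a bacterial artificial chromosome is placed at the start codon of Adora2a, an adenosine receptor gene, and follows the regulatory sequence of that gene. Female mice of 6 to 16 weeks received 500000 cells of AT3ova, a mouse mammary carcinoma line engineered to express ovalbumin, under the skin. The tumors were either non-treated or treated with anti-PD-L1, an antibody against the ligand of PD-1, on days 14 and 18. On day 21 the CD8+ cells were sorted into GFP+ and GFP- fractions, so that the 4 conditions were NonTreated_GFPneg, NonTreated_GFPpos, aPDL1_GFPneg and aPDL1_GFPpos. Each condition had 3 libraries, each pooled from 3 mice, and libraries are named by their codes, KT13 to KT24. All groups carry the transgene and the AT3ova tumor, and the labels do not say which GFP+ and GFP- libraries came from the same mice.

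The cytosolic ribosome is built from ribosomal RNA and a fixed set of proteins, nearly all needed in 1 copy per ribosome, and the genes of these proteins are among the most highly expressed in any growing cell. Their mRNAs start with a tract of C and T bases, the 5′ terminal oligopyrimidine (TOP) motif, through which the mTOR kinase and the protein LARP1 set how strongly they are translated. In T cells, ribosome production rises on activation, together with MYC, which drives transcription of ribosomal protein and ribosome assembly genes. Mammalian genomes also carry many processed pseudogenes of ribosomal protein mRNAs.

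The libraries held 11292699 to 19023900 counts each. Adora2a lay between 58.3 and 114 counts per 1000000 (CPM) in the 6 GFP+ libraries and between 19.3 and 35.3 CPM in the 6 GFP- libraries. The markers of CD8+ T cells (Cd3d, Cd3e, Cd3g, Trac, Trbc2, Cd8a and Cd8b1) together held 0.375% to 0.616% of the counts. Of the other cell types, the NK, B cell, macrophage, tumor cell, CD4+ T cell and fibroblast lists each held at most 0.0323% in any library, and Cd4 stayed below 1 CPM in each. Foxp3 reached 25.4 CPM. In the B cell list Ighm lay between 66.3 and 167 CPM, while Ms4a1 stayed below 1 CPM. Cdh1, at 124 to 293 CPM, made up most of the tumor cell list and Krt8 reached at most 6.26 CPM. Mitochondrial transcripts held 2.51% to 3.35%. Small nuclear RNA genes held 0.397% to 0.532% in the non-treated and 0.195% to 0.302% in the anti-PD-L1 libraries. A pair of GFP+ libraries, the non-treated KT13 and the anti-PD-L1 KT21, stood apart from the other 10. In both of them 38 of the 80 genes lay above every one of the other 10 libraries and 10 of the 80 below all of them, against 10.4% and 13.8% of the 14173 genes tested. Differences are therefore given with and without these libraries, which leaves 2 GFP+ libraries per treatment in the second case.

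The 80 genes are transcribed from 20 chromosomes, with 14 genes on chromosome 7, 4 on chromosome X and none on chromosome Y. Promoter entries of RefSeq (GRCm38.p6) matched 60 of the 80 genes, in 70 windows of 30 bases that span the annotated start, 15 bases on each side. A run of 10 or more C or T bases stood in 20 of the 70 windows (28.6%), against 5.34% of the 32851 windows of all promoters. The letters CTTTC on the coding strand stood in 18 of the 70 windows (25.7%), against 4.05% of all windows, and the letters CTTCC in 14 windows (20.0%), against 6.63%. On the opposite strand the same letters stood in 4.29% and 14.3% of the windows of these genes and in 3.60% and 7.31% of all windows. A run was counted anywhere in the window, and whether it begins at the first base of the mRNA, as the TOP motif does, was not tested. The windows with the longest runs are shown with the run in capitals, 5′ to 3′ on the strand of the gene.
Rpl7a (chr2:26910792-26910821, + strand): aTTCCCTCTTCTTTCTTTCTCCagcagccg
Rpl27a (chr7:109519180-109519209, + strand): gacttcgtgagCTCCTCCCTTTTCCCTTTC
Rpl34 (chr3:130730323-130730352, - strand): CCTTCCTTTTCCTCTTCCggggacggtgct
Rpl35 (chr2:39005117-39005146, - strand): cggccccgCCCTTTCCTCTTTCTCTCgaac
Rpl15 (chr14:18270972-18271001, - strand): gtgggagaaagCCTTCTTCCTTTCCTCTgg
Fau (chr19:6057932-6057961, + strand): tgcgcgcccccaCTTCTTCCTCTTTCTTga
Rpl14 (chr9:120571502-120571531, + strand): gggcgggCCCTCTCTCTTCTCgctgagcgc
Rps24 (chr14:24490663-24490692, + strand): cccgcgctggggTCCTTCCTTgcgcgttga
Rpl36a (chrX:134585639-134585668, + strand): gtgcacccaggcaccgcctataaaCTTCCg
Rpl24 (chr16:55966260-55966289, + strand): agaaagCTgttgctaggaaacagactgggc
The runs reached 21 bases in Rpl7a and 19 in Rpl27a. Rps24, Rpl36a and Rpl24 are shown for their counts, described further on, and their longest runs were 9, 5 and 2 bases.

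QuantSeq reads come from the 3′ end of each transcript rather than from its whole length, so CPM values can be set side by side between genes without a correction for length. The median of the 80 genes was 1850 CPM, against 12.8 CPM over all 14173 genes tested, and 73 of the 80 averaged over 1000 CPM. The median was 1622 CPM for large-subunit and 2049 CPM for small-subunit genes. Rplp1, which encodes an acidic protein of the P stalk where elongation factors dock, was the highest of the 80 with a mean of 5345 CPM over the 12 libraries. It was followed by Rps23 of the decoding centre (4375 CPM), Rpl27a (4090 CPM), Rps15a (4019 CPM) and Rps9 (3686 CPM). These followers differed little beside their ranges over the libraries, which spanned 2782 to 5098 CPM for Rps23 and 3387 to 5584 CPM for Rpl27a. The other P-stalk genes Rplp2 and Rplp0 averaged 3151 and 2200 CPM. The lowest were Rps19bp1 at 16.3 CPM and Rpl13a at 120 CPM, which encodes a protein also known for silencing inflammatory mRNAs outside the ribosome. Rpl29 (472 CPM), Rps12 (542 CPM) and Rpl24 (597 CPM) came next. Although ribosomes hold these proteins in equal number, with several copies only in the P stalk, the levels of the genes counted here thus spanned from 120 to 5345 CPM without Rps19bp1.

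Several of these levels are uncertain because parts of the mRNAs recur elsewhere in the genome. Runs of 75 bases, the read length, were taken from the last 400 bases of each protein-coding transcript (GENCODE vM21) and looked up in all other transcripts. A median of 42.0% of the runs of the 80 genes were shared with at least 1 other gene. In all, 539 genes shared runs with them, of which 523 are annotated as pseudogenes. For 31 of the 80 genes these others held more counts than the gene itself. Rps12 held 96664 counts over the 12 libraries, and the 21 genes that share its runs held 2888931. Rpl13a held 21207 counts, and the pseudogene Gm11478, which shares 5.21% of its runs, held 331107. The other gene that shares its runs (42.0% of them), Gm45713 (chr7:45125922-45136231), overlaps Rpl13a (chr7:45125558-45128761) on the same strand and was listed at 0 in all 12 libraries. Rps27rt and Rpl36a shared every run with other genes, and still had counts in all libraries. Rps27rt held 314647 counts over the 12 libraries, close to the 326638 of Rps27. Reads that match both may have been counted in each, which was not tested. Sums over the 80 genes, and sums of genes and their copies, given further on, may therefore hold the same read more than once. In contrast, 9 of the 80 genes shared no run, among them Rpl4, Rpl27a, Rps3 and Rps20. The last 60 coding bases of some of these mRNAs show the identity, with the stop codon in capitals.
Rps12 (identical in 19 other genes): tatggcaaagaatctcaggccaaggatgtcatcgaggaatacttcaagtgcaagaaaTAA
Rps23 (identical in 6 other genes): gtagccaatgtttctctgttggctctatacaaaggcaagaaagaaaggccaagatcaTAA
Rps6 (identical in 4 other genes): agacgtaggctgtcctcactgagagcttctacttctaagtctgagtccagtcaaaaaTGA
Rps27 (identical in 1 other gene, Rps27rt): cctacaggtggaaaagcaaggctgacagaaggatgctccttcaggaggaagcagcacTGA
Rps27l (identical in 1 other gene, Gm35106): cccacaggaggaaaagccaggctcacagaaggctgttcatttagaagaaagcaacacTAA
Rps27 and its paralog Rps27l differ at 12 of these 60 bases, so reads from there can be told apart, while Rps27 and the retrogene Rps27rt are identical over them.

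**Figure D1:**
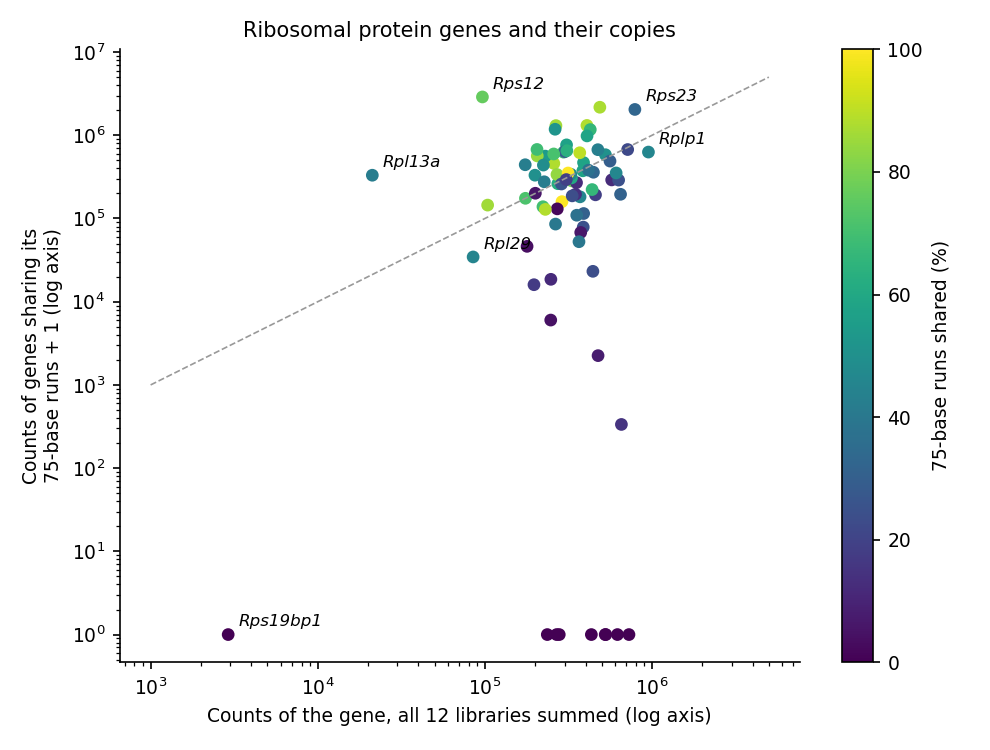
Counts of each of the 80 genes, summed over the 12 libraries (x axis, log scale), against counts of the genes that share runs of 75 bases with it, plus 1 (y axis, log scale). Colour gives the share of the gene's runs found elsewhere, and the dashed line marks equal counts. For 31 of the 80 genes the point lies above the line, with Rps12 and Rpl13a farthest, and genes that share no run lie at the bottom.

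The first question was what share of the counts of each condition these genes held. In the non-treated GFP- libraries KT14, KT16 and KT18 the 80 genes held 15.9%, 14.7% and 15.2% of all counts. In the non-treated GFP+ libraries KT13, KT15 and KT17 they held 18.2%, 15.6% and 16.9%. These groups overlapped, since KT15 lay below KT14. After anti-PD-L1 the GFP- libraries KT20, KT22 and KT24 held 15.3%, 15.4% and 14.95%, and the GFP+ libraries KT19, KT21 and KT23 held 16.1%, 18.5% and 15.8%. Here the lowest GFP+ value exceeded the highest GFP- value. Non-treated GFP- cells had a mean of 15.2% ± 0.608 (SD, n = 3) and non-treated GFP+ cells one of 16.9% ± 1.32. The corresponding means after anti-PD-L1 were 15.2% ± 0.256 and 16.8% ± 1.46. Leaving out KT13 and KT21 gave GFP+ means of 16.3% ± 0.943 and 15.97% ± 0.182 (n = 2 each). The sum was taken over genes chosen as a group and was not tested.

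Large-subunit and small-subunit genes kept nearly the same proportion throughout. Counts of the large-subunit genes were 1.15 to 1.19 times those of the small-subunit genes in 11 libraries and 1.24 times in KT21. The genes that share runs with the 80 moved the other way in the libraries that stood apart. They held 14.5% of counts in KT13 and 13.5% in KT21, against 17.0% to 19.4% in the other 10. The sum of the 80 genes and these copies was 32.7% in KT13 and 32.0% in KT21, within or just below the 32.1% to 36.3% of the other 10 libraries. In KT13 and KT21 the 80 genes were thus high and their copies low, and the share of both together was not raised. In the other 10 libraries the sum was 33.6% to 36.3% in GFP+ and 32.1% to 33.7% in GFP- cells.

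**Figure D2:**
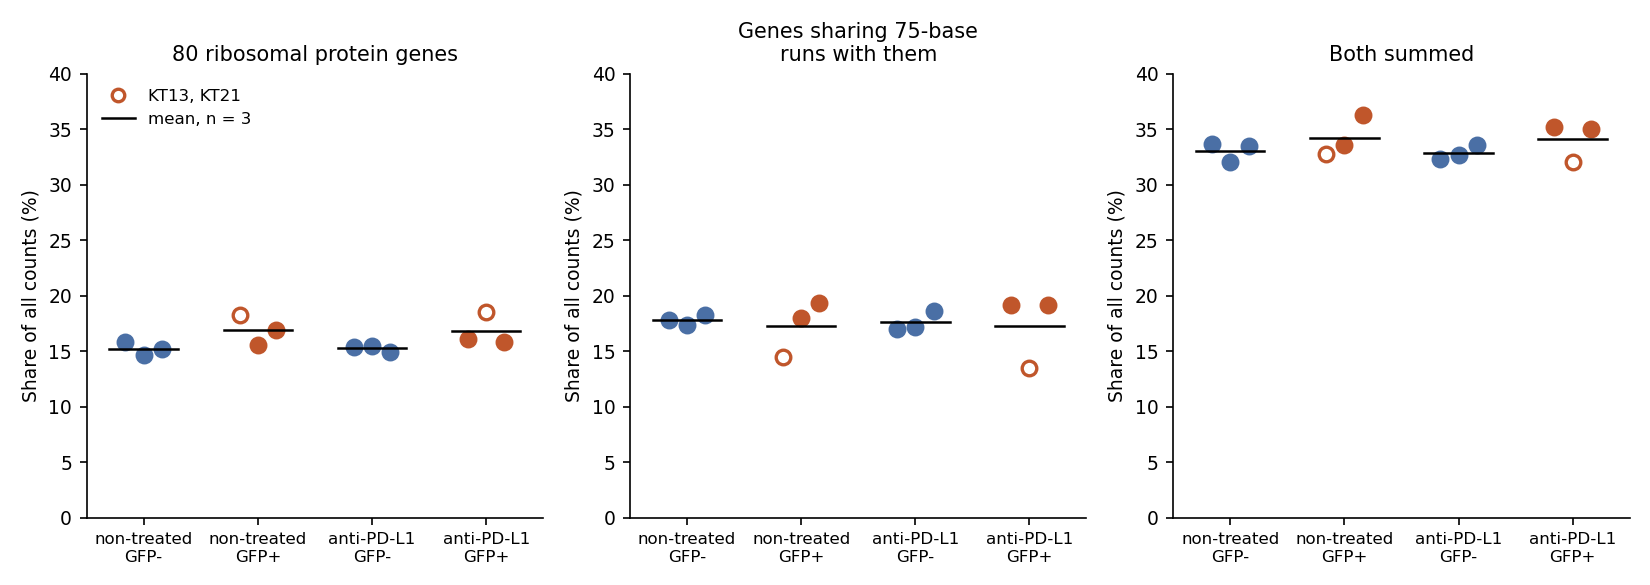
Share of all counts (y axis, %) held by the 80 ribosomal protein genes, by the 539 genes that share runs of 75 bases with them, and by both, in each library of the 4 conditions. Points are libraries, open points are KT13 and KT21, and bars are means of 3. The open points are the highest in the first panel (18.2% and 18.5%) and the lowest in the second (14.5% and 13.5%).

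To ask whether A2AR expressing cells differed in single genes, GFP+ and GFP- libraries were compared by edgeR's quasi-likelihood test over all genes with Benjamini-Hochberg adjustment, gene by gene. In such bulk samples, fewer cells that express a gene and less of its RNA per cell cannot be told apart. No gene of the 80 was called at an adjusted p under 0.05 in non-treated cells, where 0.00706% of all genes tested were called, or after anti-PD-L1, where 0.0282% were called. DESeq2 called none in either comparison. At an unadjusted p under 0.05, 2 of the 80 were higher in non-treated and 3 after anti-PD-L1, against 3.21% and 2.38% of all genes. None of the 80 was lower at that threshold, against 2.84% and 1.69% of all genes. Marker lists moved with GFP too. The B cell list held 0.0147% to 0.0171% of counts in non-treated GFP+ and 0.0104% to 0.0109% in non-treated GFP- libraries, and 0.00928% to 0.0132% and 0.00703% to 0.00866% after anti-PD-L1, without overlap in either. The CD8+ T cell list was lower in non-treated GFP+ (0.375% to 0.421%) than in non-treated GFP- libraries (0.454% to 0.470%). After anti-PD-L1 this list overlapped, at 0.457% to 0.616% in GFP+ and 0.518% to 0.534% in GFP- libraries. In non-treated cells Cd8a lay at 774 to 868 CPM in GFP+ and at 1081 to 1208 CPM in GFP- libraries. Cd8b1 and Cd3g were also lower there without overlap, while Trac, Trbc2, Cd3d and Cd3e overlapped. Klrb1c of the NK cell list lay at 37.3 to 51.0 CPM in GFP+ and 14.0 to 31.4 CPM in GFP- libraries, without overlap. Klre1, Ncr1 and Eomes of the same list overlapped between GFP+ and GFP- libraries. The part of these markers in the values below was not tested. The levels of the 80 genes lay mostly on 1 side. In non-treated cells 68 of the 80 genes had a log2 fold change above 0, with a median of 0.19, while 50.2% of all genes tested were above 0, with a median of 0.00. After anti-PD-L1 68 of the 80 were above 0, with a median of 0.16, and the median of all genes was again 0.00.

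Without KT13 and KT21 the medians were 0.10 in both comparisons, and 77 of the 80 genes in non-treated cells and 74 after anti-PD-L1 were above 0. None was called here either by edgeR or DESeq2, where edgeR called 0.339% and 0.17% of all genes tested. At an unadjusted p under 0.05, 4 of the 80 were then higher in non-treated cells and 3 after anti-PD-L1, against 4.06% and 2.61% of all genes, and none was lower, against 5.17% and 2.73%. Separation of the libraries was counted in each treatment, and the difference between treatments in this count was not tested. In 28 of the 80 genes all 3 GFP+ libraries lay above all 3 GFP- libraries, against 5.31% of all genes, and in non-treated cells 5 of the 80 did so, against 6.19%. Without KT13 and KT21 these counts were 39 of the 80 after anti-PD-L1, against 11.4% of all genes, and 10 of the 80 in non-treated cells, against 12.3%. None of the 80 had its GFP+ libraries all below its GFP- libraries in either comparison, against 6.63% of all genes in non-treated cells and 5.33% after anti-PD-L1. The 80 genes share libraries and scaling, so they are not independent measurements of this shift. The 9 genes that share no run with any other include Rps19bp1. Their median was 0.22 in non-treated cells and 0.19 after anti-PD-L1 over 12 libraries, and 0.11 and 0.08 without KT13 and KT21. The part of shared reads in the shift was not tested.

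**Figure D3:**
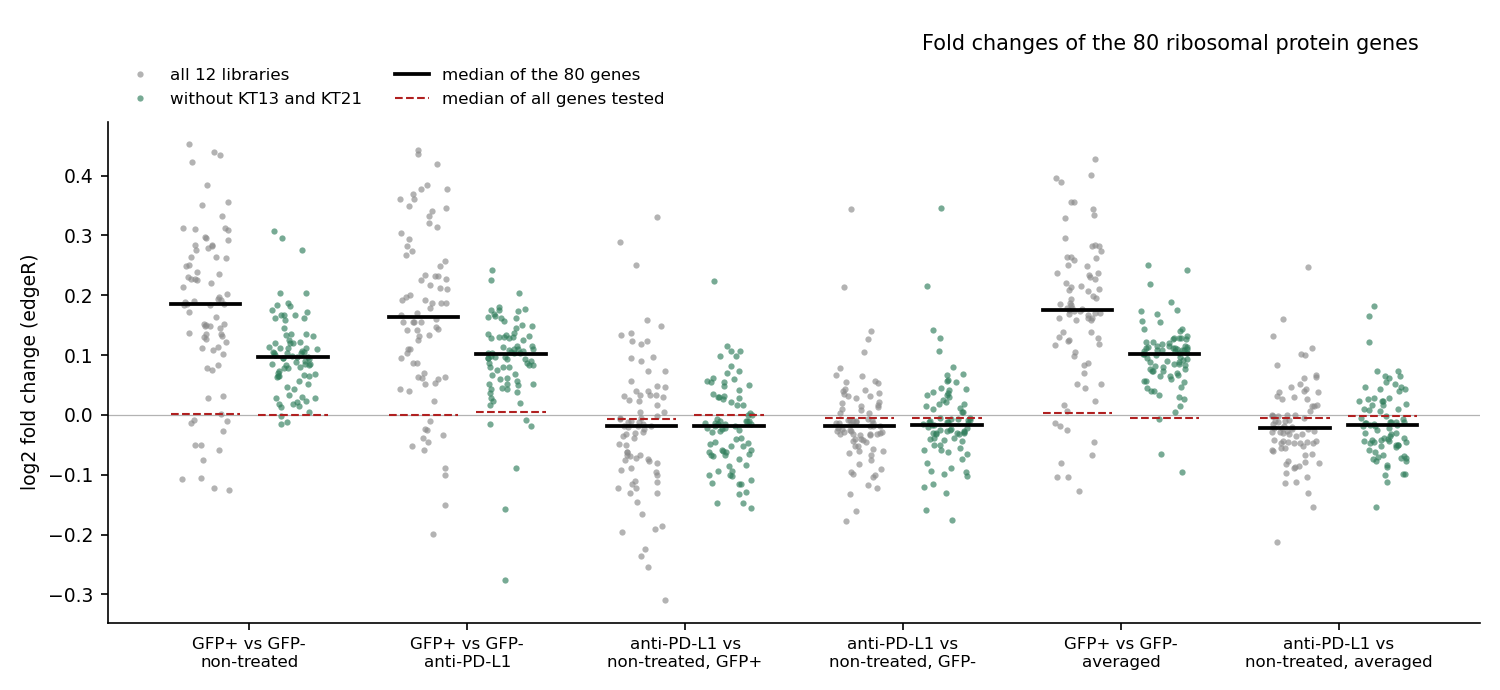
log2 fold change of each of the 80 ribosomal protein genes (y axis) in 6 comparisons, over all 12 libraries (grey) and without KT13 and KT21 (green). Black bars are medians of the 80 genes and dashed bars medians of all genes tested. The medians of GFP+ against GFP- lie at 0.16 to 0.19 over 12 libraries and at 0.10 without the 2, and those of anti-PD-L1 against non-treated lie at -0.02.

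Among the proteins of the P stalk, Rplp1 stood out. Its level was 5337, 4458 and 4875 CPM in the non-treated GFP- libraries and 5453, 5562 and 6444 CPM in the non-treated GFP+ libraries. After anti-PD-L1 it was 4762, 4854 and 4659 CPM in GFP- and 5583, 6772 and 5388 CPM in GFP+ libraries. All 6 GFP+ libraries lay above all 6 GFP- libraries, which held for no other of the 80 genes and for 0.437% of all genes tested, while the reverse held for none of the 80 and for 0.529% of all genes. The average over treatments reuses the libraries of both comparisons. Averaged in this way its log2 fold change was 0.28 (SE 0.09) with an adjusted p of 0.397, and without KT13 and KT21 it was 0.25 (SE 0.07) with an adjusted p of 0.0684. DESeq2 without KT13 and KT21 called it, with an adjusted p of 0.0228, where 1.74% of all genes were called. Adding the counts of its copies to it, again without KT13 and KT21, gave 0.27 and an adjusted p of 0.0258 by edgeR, where 1.12% of all genes were called. Its copy with the most shared runs, Gm10073, is annotated as protein-coding and lay between 1415 and 2571 CPM. Rplp0, which anchors the stalk to the ribosome, ranged from 1760 to 2215 CPM outside KT13 and KT21 and reached 3026 and 3416 CPM in them. Rplp2, the other acidic stalk protein, averaged 3014 CPM ± 256 (SD, n = 3) in non-treated GFP- and 3347 CPM ± 298 in non-treated GFP+ cells, a difference near the spread between libraries.

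Beside Rplp1, the large-subunit genes among the smallest p in the GFP comparisons were Rpl13, Rpl35, Rpl32, Rpl41 and Rpl14. Rpl35, whose protein sits at the exit of the peptide tunnel, averaged 1351 CPM ± 127 in non-treated GFP- and 1724 CPM ± 361 in non-treated GFP+ cells (SD, n = 3 each). Averaged over treatments it differed by 0.36 on the log2 scale (SE 0.12, adjusted p = 0.437), and by 0.18 without KT13 and KT21. Rpl41, which encodes the smallest ribosomal protein, was 2039, 2229 and 2318 CPM in the anti-PD-L1 GFP- libraries and 2595, 3818 and 2543 CPM in the GFP+ libraries. Its log2 fold change there was 0.44 (SE 0.17), with an adjusted p of 0.993, and 0.23 (SE 0.10) without KT13 and KT21. Rpl14 had the largest averaged difference of the 80, 0.43 (SE 0.16, adjusted p = 0.491), and was at 0.16 without KT13 and KT21. Rpl13 gave 0.33 (SE 0.15) and Rpl32 0.36 (SE 0.18) in non-treated cells, and 0.18 and 0.10 without KT13 and KT21. Rpl5, which binds 5S ribosomal RNA and with it the p53 regulator MDM2, was among the genes with the smallest range, 2642 to 3165 CPM over all 12 libraries.

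Of the small-subunit genes, Rps3a1 was 3355, 2888 and 3112 CPM in the non-treated GFP- libraries and 5122, 3354 and 3734 CPM in the non-treated GFP+ libraries. The groups overlapped narrowly, and KT13 was far above the rest. The difference on the log2 scale was 0.38 (SE 0.15, adjusted p = 0.765) and 0.18 (SE 0.09) without KT13 and KT21. Rps20, a protein of the head of the subunit whose mRNA shares no run with another gene, was 2593, 2600 and 2397 CPM in the anti-PD-L1 GFP- libraries. It was 2928, 4577 and 2763 CPM in the GFP+ libraries, all above the former. The difference of 0.44 (SE 0.18) became 0.17 (SE 0.10) without KT13 and KT21. Rps4x, encoded on the X chromosome, gave 0.31 (SE 0.15) in non-treated cells, and 0.15 without KT13 and KT21.

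Rps24, which is needed to process the precursor of 18S ribosomal RNA, depended on which libraries were used, and is named after its values were seen. Its level was 3113, 3279 and 3601 CPM in the non-treated and 3405, 3525 and 3825 CPM in the anti-PD-L1 GFP- libraries. In KT15, KT17, KT19 and KT23 it was 3839, 4406, 4059 and 4053 CPM, above all of these. In KT13 and KT21, however, it was 2730 and 2307 CPM, below every other library. The averaged log2 fold change was therefore 0.04 (SE 0.15) over 12 libraries and 0.24 (SE 0.07) without KT13 and KT21, with adjusted p of 0.958 and 0.0938 by edgeR and, in the latter case, of 0.0276 by DESeq2. Rplp1 and Rps24 were the 2 of the 80 genes that DESeq2 called there, where 1.74% of all genes were called. Over the same 10 libraries Rps3a1, Rpl5, Rps24 and Rplp1 were the 4 genes whose GFP+ libraries all lay above all 6 GFP- libraries, against 1.19% of all genes. Rps3a1 separated by less than 1 CPM and only with the scaling recomputed over these 10 libraries, and it overlapped with the scaling of all 12. Rpl36a, likewise named after its values were seen, gave 0.22 (SE 0.07, adjusted p = 0.201) without them. The averaged comparison over 12 libraries called none of the 80 genes by edgeR or DESeq2, where edgeR called 0.31% of all genes, and edgeR called none without KT13 and KT21, where 1.08% were called. At an unadjusted p under 0.05, 18 of the 80 were higher in GFP+ cells over 12 libraries, against 4.52% of all genes, and 9 of the 80 without KT13 and KT21, against 4.71%. None was lower in either, against 3.66% and 5.59% of all genes.

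**Figure D4:**
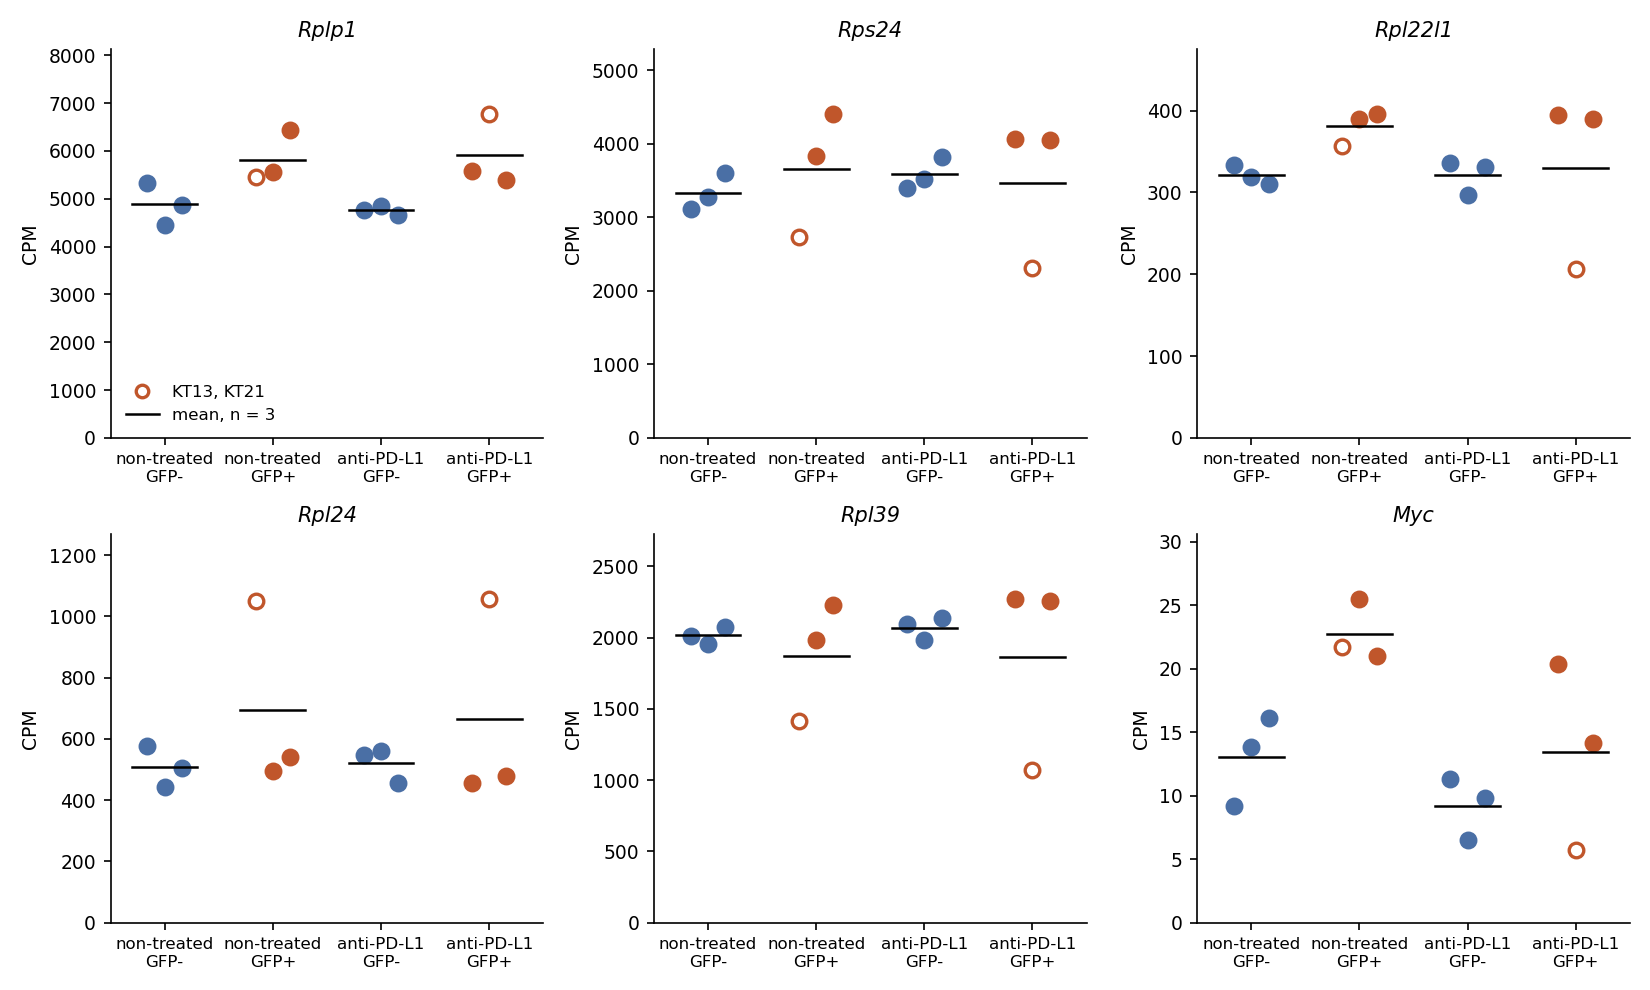
Level (y axis, CPM from 0) of Rplp1, Rps24, the paralog Rpl22l1, Rpl24, Rpl39 and Myc in each library of the 4 conditions. Points are libraries, open points are KT13 and KT21, and bars are means of 3. Rplp1 is higher in every GFP+ than in every GFP- library, while in Rps24, Rpl22l1, Rpl24 and Rpl39 1 or both open points lie far from the others.

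Anti-PD-L1 was compared with no treatment to ask whether checkpoint blockade shifted these genes. The medians of the 80 genes were -0.02 in GFP+ and -0.02 in GFP- cells, beside -0.01 for all genes tested in both. No gene of the 80 was called in either comparison by edgeR or DESeq2, where 0.0141% and 0% of all genes were called by edgeR. None of the 80 passed an unadjusted p of 0.05 in either, against 3.13% higher and 3.61% lower of all genes in GFP+ cells and 1.28% and 2.16% in GFP- cells. Averaged over GFP, none was called by either tool, where edgeR called 0.395% of all genes, none passed an unadjusted p of 0.05, against 3.18% higher and 4.49% lower of all genes, and the median was -0.02. Leaving out KT13 and KT21, neither tool called any of the 80 in GFP+ cells, in GFP- cells or in their average, where edgeR called 0.563%, 0.373% and 1.36% of all genes, and the medians stayed at -0.02. At an unadjusted p under 0.05, none of the 80 was then higher in GFP+ cells (4.56% of all genes), 2 were higher in GFP- cells (3.17%) and 1 in the average (5.51%). None was lower in GFP+ cells (3.99% of all genes), in GFP- cells (4.05%) or in the average (5.7%).

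The gene with the smallest p in GFP+ cells was Rps29, which encodes a zinc-binding protein near the decoding site. It was 5191, 3400 and 4239 CPM in the non-treated and 3581, 3279 and 3495 CPM in the anti-PD-L1 GFP+ libraries, and the groups overlapped. Its log2 fold change was -0.31 (SE 0.15, adjusted p = 0.747), and -0.11 without KT13 and KT21. Rpl41 gave 0.29 (SE 0.17) and Rps2, a protein of the mRNA entry channel, -0.25 (SE 0.16). With KT13 and KT21 left out these became 0.02 and -0.02. In GFP- cells Rpl13a had the largest difference, with 111, 103 and 94.3 CPM in non-treated and 140, 144 and 108 CPM in anti-PD-L1 libraries. The lowest treated library lay below the highest non-treated one, and the difference was 0.34 on the log2 scale (SE 0.20). With the counts of its copies added the difference was 0.03. Rpl17, which lines the peptide tunnel, was at 2083, 2184 and 2335 CPM in non-treated and at 2601, 2499 and 2556 CPM in anti-PD-L1 libraries. These did not overlap, but the difference of 0.21 (SE 0.14) did not pass the test (adjusted p = 1). In GFP- cells Rps15a, Rpl27 and Rpl17 were the 3 genes of the 80 whose anti-PD-L1 libraries all lay above the non-treated ones, against 6.08% of all genes, and none of the 80 lay wholly below, against 6.26%. In GFP+ cells none was separated over the 3 libraries each, against 4.66% higher and 5.67% lower. With KT13 and KT21 left out 5 of the 80 lay wholly above and 10 wholly below in GFP+ cells, against 19.6% and 19.5% of all genes, and in GFP- cells 3 lay above and none below, against 5.95% and 6.19%.

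Whether the GFP difference depended on treatment was tested by the interaction. No gene of the 80 was called by edgeR or DESeq2, at an unadjusted p under 0.05 none was found, and 0% of all genes were called, with 1.16% and 0.917% of all genes past the unadjusted threshold in each direction. The smallest p belonged to Rpl41, with an interaction of 0.41 (SE 0.23) on the log2 scale that became 0.14 (SE 0.15) without KT13 and KT21. Rpl10 (0.27), Rpl32 (-0.31) and Rpl17 (-0.22) were also among the smallest p, each with an SE between 0.19 and 0.25. The median SE of the interaction over the 80 genes was 0.22, or 0.14 without KT13 and KT21. Leaving these libraries out, again none of the 80 was called or passed an unadjusted p of 0.05, against 2.51% higher and 1.78% lower of all genes.

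The spread between libraries was dominated by KT13 and KT21. Over all 12 libraries the median range of the 80 genes was 0.65 on the log2 CPM scale, and 19 of the 80 had a range under 0.5. Over the other 10 libraries the median range was 0.34 and 75 of the 80 lay under 0.5, beside a median of 0.43 for the 1241 other genes with a mean between 120 and 5345 CPM. Those genes were not matched to the 80 in level within these limits, and 73 of the 80 averaged over 1000 CPM. The narrowest over 12 libraries were Rpl5, Rps7, Rps25, Rps26 and Rpl6, with ranges of 0.26 to 0.36. The widest were Rpl24, Rpl36, Rpl39, Rpl28 and Rpl8, with ranges of 1.03 to 1.26. Rpl24, which forms a bridge between the subunits, was at 1050 and 1057 CPM in KT13 and KT21 and between 442 and 577 CPM in all others. Rpl36 was at 2552 and 2183 CPM in them, against 1162 to 1515 CPM, and Rpl8 at 2324 and 2190 CPM, against 1139 to 1422 CPM. Rpl39, a small protein lining the peptide tunnel, was low instead, at 1412 and 1068 CPM against 1956 to 2271 CPM. Rps23 was low too, at 2893 and 2782 CPM against 4090 to 5098 CPM.

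The difference between the mean of KT13 and KT21 and that of the other 10 libraries thus ran from -0.77 for Rpl39 to 1.06 for Rpl24, with a median of 0.26 over the 80 genes and 0.00 over all genes tested. It was above 0 for 63 of the 80. The differences of KT13 and of KT21 from the other 10 were alike across the 80 genes (Pearson's r = 0.71 across genes, which share the libraries they are compared with). Genes with more G and C in the last 400 bases of the transcript, which ranged from 34.2% to 60.8%, tended to be higher in KT13 and KT21 (r = 0.40 over the 80 genes and 0.14 over 14087 genes). The 454 copies that were tested had a median difference of -0.83, and 90 of them lay above 0. Base composition and depth, 11292699 and 12881695 counts in KT13 and KT21, moved with these values, and their part in them was not tested.

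**Figure D5:**
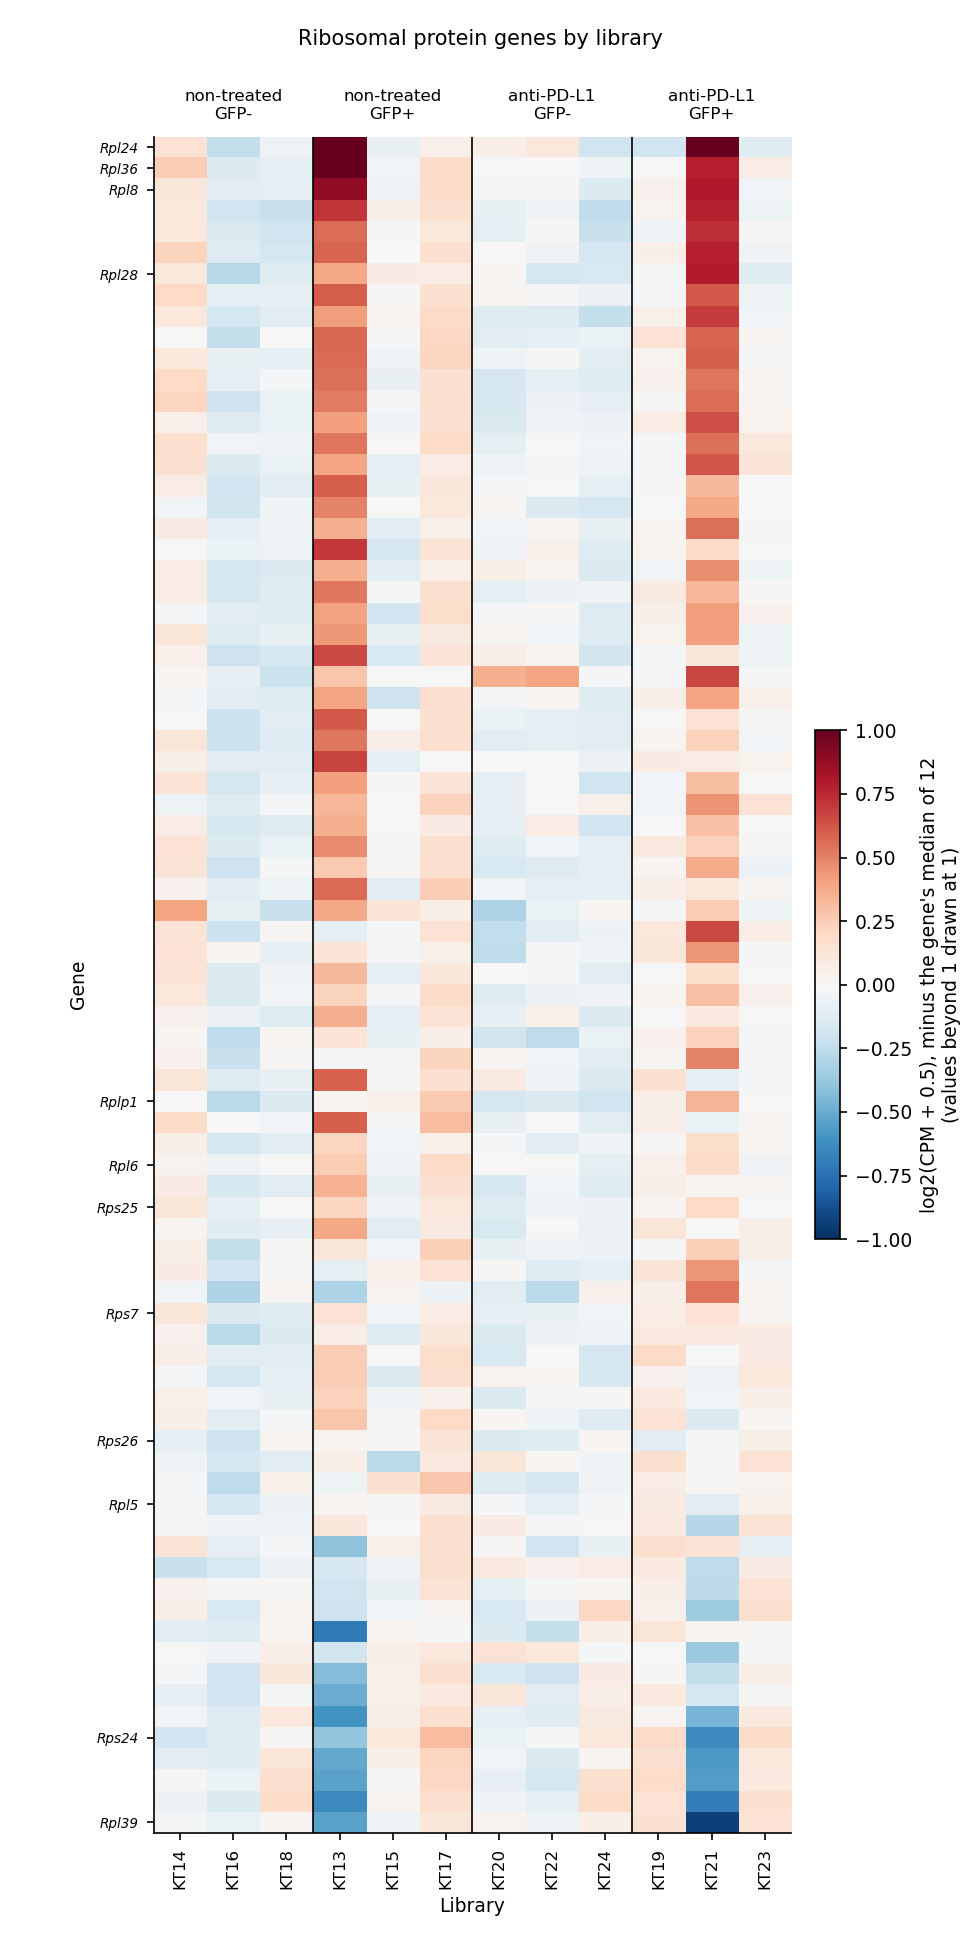
log2(CPM + 0.5) of the 80 genes in the 12 libraries, as the difference from the gene's median over the libraries (colour, limited to -1 and 1). Rows, of which 12 are labelled, are ordered by the difference between KT13 and KT21 and the other 10, from Rpl24 (1.06) to Rpl39 (-0.77). The KT13 and KT21 columns hold nearly all strong colours.

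Among the paralogs, Rpl22l1 averaged 338 CPM and Rpl22 1396 CPM. Rpl22, an RNA-binding protein of the large subunit, is needed for the development of alpha beta T cells, and Rpl22l1 can take its place in the ribosome. Rpl22l1 was 333, 319 and 311 CPM in the non-treated and 336, 297 and 331 CPM in the anti-PD-L1 GFP- libraries. In the GFP+ libraries it was 357, 390 and 396 CPM in non-treated and 395, 206 and 389 CPM in anti-PD-L1 cells, so that all but KT21 lay above all GFP- libraries. Averaged over treatments the difference was 0.14 (SE 0.14, adjusted p = 0.831), and without KT13 and KT21 0.29 (SE 0.08) with an adjusted p of 0.0676 by edgeR and 0.00156 by DESeq2. Rpl22 itself gave 0.21 (SE 0.11), and 0.09 without KT13 and KT21. Rps27l, a p53-induced paralog, averaged 54.7 CPM against 1846 CPM for Rps27 and was tested without a call. Rpl3l, expressed in muscle, was nearly absent, with counts in 1 library of the 12, while Rpl3 averaged 1860 CPM.

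Several ribosomal proteins are made as fusions or do not carry an Rpl or Rps symbol. Fau, in which small-subunit protein S30 is fused to a ubiquitin-like protein, averaged 1546 CPM, and Rps27a, in which S27a is fused to ubiquitin, 2049 CPM. Fau was high in KT13 and KT21 (1895 and 2233 CPM against 1314 to 1600 CPM), and Rps27a was low in them (1486 and 1424 CPM against 1921 to 2452 CPM). Rack1, a scaffold on the small subunit, averaged 1526 CPM and gave an averaged GFP difference of 0.26 (SE 0.12, adjusted p = 0.603), or 0.09 without KT13 and KT21.

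The wider machinery of ribosome production was followed by lists of its genes. Of 37 translation factors, 53 ribosome assembly factors, 15 genes of RNA polymerase I, 23 genes that control ribosomal protein synthesis and 77 mitochondrial ribosomal proteins tested, none was called over 12 libraries in any comparison by edgeR or DESeq2. In the averaged GFP comparison, 2, 5, 1, 1 and 2 of these lists' genes were higher and 0, 2, 0, 0 and 1 lower at an unadjusted p under 0.05, against 4.52% and 3.66% of all genes. Over the other 10 libraries these counts were 2, 3, 0, 1 and 2 higher and 0, 1, 0, 2 and 1 lower, against 4.71% and 5.59%. Without KT13 and KT21 edgeR called only Myc, in the averaged GFP comparison, where 1.08% of all genes were called. DESeq2, which called 1.74% of all genes there, called Myc, Ddit4, an inhibitor of mTOR signaling, and Gar1, a protein of the particles that modify ribosomal RNA, the last 2 named after their values were seen. Myc was 9.19, 13.9 and 16.2 CPM in the non-treated GFP- and 21.7, 25.5 and 21.0 CPM in the non-treated GFP+ libraries, without overlap. After anti-PD-L1 it was 11.4, 6.49 and 9.81 CPM in GFP- and 20.4, 5.76 and 14.1 CPM in GFP+ libraries, with the lowest value in KT21. Averaged over treatments Myc differed by 0.67 on the log2 scale (SE 0.26, adjusted p = 0.515) over 12 libraries and by 0.87 (SE 0.19, adjusted p = 0.0189) without KT13 and KT21.

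In GFP+ against GFP- cells averaged over treatments, the medians of the lists without KT13 and KT21 were 0.02 for translation factors, 0.06 for assembly factors, -0.06 for RNA polymerase I genes, -0.05 for the control genes and -0.03 for mitochondrial ribosomal proteins, beside 0.10 for the 80 genes. Of the assembly factors 37 of 53 were above 0, and of the mitochondrial ribosomal proteins 33 of 77, beside 49.3% of all genes. Wdr12, a factor of large-subunit assembly, gave 0.49 (SE 0.15) over 12 libraries, with an adjusted p of 0.333, and 0.43 (SE 0.15) without KT13 and KT21. Eef1g, a subunit of elongation factor 1, gave 0.32 (SE 0.13, adjusted p = 0.564), and 0.12 (SE 0.08) without them. Larp1, which binds TOP mRNAs, gave -0.42 (SE 0.22) and was lowest in KT13 and KT21 (91.3 and 78.2 CPM against 164 to 228 CPM). Over the other 10 libraries its value was -0.13 (SE 0.10).

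After anti-PD-L1, averaged over GFP, 13 of the 53 assembly factors and 44 of the 77 mitochondrial ribosomal proteins were above 0 over 12 libraries, beside 26 of the 80 genes, with medians of -0.06, 0.02 and -0.02, while 48.8% of all genes were above 0. Over the other 10 libraries these counts were 14 of 53, 38 of 77 and 28 of 80, with medians of -0.10, -0.004 and -0.02, beside 49.8% of all genes, so that the median of the mitochondrial genes changed sign. Nolc1, a nucleolar phosphoprotein, had the smallest p of the assembly factors, at -0.40 on the log2 scale (SE 0.13, adjusted p = 0.362), and -0.36 (SE 0.13) without KT13 and KT21. Myc gave -0.63 (SE 0.26, adjusted p = 0.576) in the same comparison, and -0.46 (SE 0.19) without them. None of these passed the test.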

How the data were processed

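RNA of CD8+ tumor-infiltrating T cells was sequenced with the QuantSeq 3′ kit in 12 libraries of 4 conditions, each a pool of 3 mice, so that p-values measure the spread between pools. The authors deposited raw counts per gene, 1 column per library, without normalization. The submitters' processing notes name cutadapt 1.7, HISAT2, the mm10 build and featureCounts of Subread 1.6.4; the settings for strand and for reads with several matches are not given in the sources used here. Reads carry no molecular identifiers, so counts are not independent molecules. Counts were scaled by TMM and tested with edgeR 4.0.16 under R 4.3.3 (quasi-likelihood, 1 fit over the 4 conditions, filterByExpr), and p-values were adjusted over all genes tested at a threshold of 0.05. DESeq2 1.42.0 served as an alternative. CPM are TMM-scaled, except those of Adora2a, cell markers and Gm10073, which are relative to the library total, log2 CPM use a pseudocount of 0.5, and shares are of all counts. Symbols and gene positions are from GENCODE vM21 (GRCm38), which matched 52489 of 52636 identifiers, and promoter windows are from RefSeq (GRCm38.p6). The edgeR test was checked on simulated counts in which no library was made to stand apart, so the check does not cover libraries such as KT13 and KT21. The members, lists and alternatives were chosen with earlier results of these data known. Genes were named if they had 1 of the 5 smallest unadjusted p of a comparison, 1 of the 5 highest or lowest mean levels or 1 of the 5 largest or smallest ranges, together with the paralogs, P-stalk and fusion genes and Rack1, and in the other lists if called or among the 2 smallest p of a list and comparison. Some genes that the rule names are not reported here. KT13 and KT21 were left out as an alternative throughout. For Adora2a and a gene set analysis, the paper's legends give 2 GFP+ and 3 GFP- samples, without naming libraries.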

Additional observations from a re-analysis of the deposited data

How the results depend on the processing

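No member was called in 184 of 186 combinations of setting and comparison. The exceptions, both chosen after seeing the data, were in GFP+ against GFP- cells averaged over treatments, where DESeq2 without KT13 and KT21 called 2 and adding the counts of copies without KT13 and KT21 called 1. Leaving out 1 library at a time called 0 in every comparison. The median log2 fold changes moved by less than the spread between libraries of a condition (0.11 on the log2 scale) under every alternative. That spread includes KT13 and KT21 and is about as large as the GFP medians without them. Leaving them out lowered the GFP medians from 0.19 to 0.10 in non-treated cells and from 0.16 to 0.10 after anti-PD-L1. Staying within the spread thus does not show that the shift is stable. With 1 library left out they ranged from 0.10 to 0.26 for GFP+ against GFP- in non-treated cells, from 0.10 to 0.23 after anti-PD-L1 and from 0.13 to 0.23 averaged over treatments. For anti-PD-L1 against non-treated cells they ranged from -0.10 to 0.06 in GFP+ cells, from -0.04 to 0.04 in GFP- cells and from -0.06 to 0.02 averaged over GFP, so their sign depended on single libraries. Adding the counts of named pseudogenes raised the mean share of counts to 25.6% (GFP+) and 24.2% (GFP-) without treatment, and to 25.5% (GFP+) and 24.1% (GFP-) with it. Leaving small nuclear and mitochondrial counts out of the total gave 15.7% in anti-PD-L1 GFP- cells. Of the 35 differences named for single members, 891 recomputed values kept their direction and their side of the threshold. Rps2 reversed in anti-PD-L1 against non-treated cells when counts of copies were added without KT13 and KT21, to 0.028 in GFP+ cells and 0.036 averaged over GFP, and the cause was not tested. With 3 libraries a condition, and 2 in GFP+ conditions without KT13 and KT21, small shifts of single genes lie below what these tests can call. No paired analysis was possible because the libraries carry no replicate numbers shared between conditions.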
